A study of Mus musculus with 18 samples.

Results

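Low MHC class II medullary thymic epithelial cells (mTEClo) were compared with cortical thymic epithelial cells (cTEC) sorted from the same Kat7 knockout mice. The genotype and subset given in the labels selected 6 of the 18 RNA-seq libraries of the series, 3 of KO mTEClo and 3 of KO cTEC, and all 19364 genes that passed the filter on low counts were described. The mice were C57BL/6 and were labelled as Kat7 knockout (KO) or wildtype (WT), with no treatment given, and the mTEClo libraries were labelled medullary with a low MHC class II level. The KO libraries came from mouse pools 4, 5 and 6 and the WT libraries from pools 1, 2 and 3, and each pool gave 1 library of cTEC, 1 of mTEClo and 1 of medullary cells with high MHC class II (mTEChi). The number of mice in a pool, their age and sex, the deleted part of Kat7 and the cells in which it was deleted are not given in the labels. The WT mTEClo and WT cTEC libraries, 3 of each, served to show where the KO comparison differed.

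Thymic epithelial cells form the stroma in which T cells develop. Cortical cells attract and nurture progenitors and present the peptides on which immature thymocytes are positively selected, using a thymus-specific proteasome subunit and lysosomal proteases found in few other cells. Medullary cells purge self-reactive T cells by showing them proteins of other tissues. The low MHC class II gate of the medulla is a mixture of immature basal cells and of late cells that take on the programmes of tuft cells, keratinocytes, neuroendocrine cells, muscle and other peripheral types, often called mimetic cells. KAT7 is a MYST family acetyltransferase that works with BRPF, JADE and ING partners and acetylates histone H3 and H4. In bulk libraries of a sorted gate, fewer cells of a type and less RNA per cell cannot be told apart.

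The 6 KO libraries held 14411708 to 20054360 counts each. The first principal component of the 6 libraries carried 78.8% of the variance and placed the mTEClo libraries between -77.9 and -75.4 and the cTEC libraries between 71.4 and 79.1. The second carried 6.7% and placed both pool 4 libraries at its negative end. Levels are given below as CPM, the share of a library's counts on the usual per-megaread scale, adjusted by TMM factors that correct for library composition. Differences are log2 values of mTEClo minus cTEC with their standard error (SE), tested with edgeR's quasi-likelihood test and Benjamini-Hochberg adjustment over all genes, and a gene was called at an adjusted p below 0.05. The p-values rest on the spread between pools within each group, with 3 pools a group, estimated over all 18 libraries of the series. This estimate was shared in part between genes, and the pairing by pool was left out of it.

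Kat7 itself was low in every KO library. It measured 1.96, 0.958 and 0.765 CPM in mTEClo of pools 4, 5 and 6 and 4.16, 3.24 and 2.26 CPM in cTEC of the same pools, against means of 46.4 and 72.2 CPM in WT mTEClo and WT cTEC. The remaining reads were fewer in KO mTEClo than in KO cTEC by a log2 difference of -1.42 ± 0.32 (SE, n = 3 per group, edgeR adjusted p = 0.00156), and WT mTEClo also held less than WT cTEC, at -0.63 (edgeR adjusted p = 0.035). Of 9 partner genes of KAT7, Jade3 was higher in KO mTEClo at 1.03, Jade2 and Ing5 were lower at -0.50 and -0.40, and 6 were not called. Over all genes, 21.2% were higher in KO mTEClo and 15.8% in KO cTEC. Jade2 lost its call without the mTEClo library of pool 5 or the cTEC library of pool 4 or 5, and Ing5 without the mTEClo library of pool 5 or 6 or the cTEC library of pool 5 or 6.

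Across the transcriptome, 7164 genes differed between KO mTEClo and KO cTEC, 37.0% of those tested. The 4097 genes higher in mTEClo made up 21.2% and the 3067 higher in cTEC 15.8%, and with a fold of at least 2 the counts were 2930 (15.1%) and 1148 (5.93%). The median log2 difference over all genes was 0.0. At an equal depth of 3554089 reads, KO mTEClo libraries held 15037 ± 44.1 genes with at least 5 reads (SD, n = 3) and KO cTEC libraries 14227 ± 102.1. The groups did not overlap, and the two-sided exact permutation p was 0.1, the smallest that 3 against 3 allows.

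**Figure D1:**
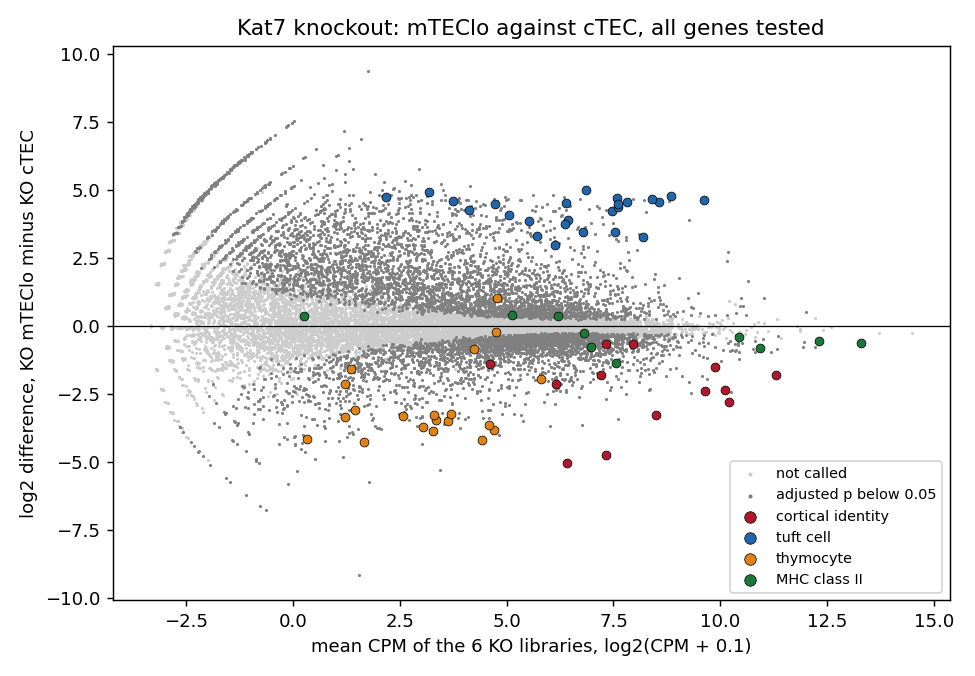
Log2 difference of KO mTEClo minus KO cTEC (vertical) against the mean CPM of the 6 KO libraries (horizontal, log2 of CPM + 0.1), 1 point per gene, with members of 4 lists in colour. All 25 tuft cell genes lie above 0 and all 13 cortical identity genes below it, while the genes called higher in mTEClo spread to larger differences than those called higher in cTEC.

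All 13 genes of the cortical identity list were higher in KO cTEC, with a median log2 difference of -2.11 beside 0.0 for all genes. No member's libraries overlapped between the groups, which was so for 10248 of all 19364 genes (52.9%). Psmb11, the thymoproteasome subunit found in cTEC, measured 93.6, 60.3 and 47.7 CPM in mTEClo and 917, 607 and 429 CPM in cTEC (log2 difference -3.28 ± 0.28, edgeR adjusted p = 1.15e-08). The pool 4 library was the highest in each subset, and the groups did not overlap. Prss16, a serine protease of cortical class II processing, measured 375, 252 and 263 CPM in mTEClo and 2867, 1713 and 1654 in cTEC. Ctsl, the cathepsin that matures class II peptides in the cortex, measured 1136, 1180 and 1114 CPM in mTEClo and 4472, 3752 and 3610 in cTEC. Its mTEClo values lay close together, and it remained abundant in the medullary gate. Ly75, the endocytic receptor CD205 used to sort cTEC, differed by -1.81 ± 0.20.

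Surface and secreted cortical products differed by between -5.04 for Cd83 and -0.68 for Il7. Enpep, the aminopeptidase known as the Ly51 sorting antigen, measured 10.7, 11.2 and 12.3 CPM in mTEClo and 288, 299 and 335 in cTEC, with the smallest adjusted p of the list (log2 difference -4.75 ± 0.16, edgeR adjusted p = 1.06e-13). The labels do not name the sorting antibodies, and a difference in a sorting antigen would be set by the gate. Cd83, which stabilises MHC class II on the surface of cTEC, measured 4.73, 5.29 and 5.10 CPM in mTEClo and 261, 136 and 104 in cTEC. The cTEC values of Cd83 spread more than those of Enpep, but the groups stood well apart. Cxcl12 and Ccl25, chemokines that draw progenitors into the thymus, differed by -2.38 ± 0.13 and -2.36 ± 0.20. Cxcl12 measured 278, 250 and 248 CPM in mTEClo against 1516, 1351 and 1186 in cTEC, and Ccl25 397, 360 and 332 against 2580, 1579 and 1443. Kitl, the stem cell factor, differed by -2.11 ± 0.18 and Dll4, the Notch ligand that commits progenitors to the T lineage, by -1.41 ± 0.31. Il7, the cytokine of early thymocytes, differed by -0.68 ± 0.12, with 127, 123 and 123 CPM in mTEClo and 217, 193 and 185 in cTEC.

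Promoters of the cortical identity genes were searched for the core motif GACGC of FOXN1, the transcription factor that directs thymic epithelial identity. The windows ran from 250 bases before to 50 bases after the start of each gene in RefSeq (GRCm38.p6), and 10 of the 13 cortical identity genes had one. GACGC or its reverse complement GCGTC stood in 5 of the 10, in 8 of 21 tuft cell genes with a window (38.1%) and in 8009 of 27025 genes overall (29.6%). With at least 2 matches the counts were 2 of 10, 2 of 21 and 2501 of 27025. A match in such a short motif is a description of the letters and not a binding site. The 250 bases before the start of Psmb11 and Enpep, the proteasome gene and the gene with the smallest adjusted p of the list, are shown 5′ to 3′ on the strand of the gene with the matches in capitals. Psmb11 lies on the plus strand (chr14:54625060-54625309), with matches beginning 239 and 62 bases before the start, and Enpep on the minus strand (chr3:129332750-129332999), with 1 match beginning 8 bases before the start.
Psmb11: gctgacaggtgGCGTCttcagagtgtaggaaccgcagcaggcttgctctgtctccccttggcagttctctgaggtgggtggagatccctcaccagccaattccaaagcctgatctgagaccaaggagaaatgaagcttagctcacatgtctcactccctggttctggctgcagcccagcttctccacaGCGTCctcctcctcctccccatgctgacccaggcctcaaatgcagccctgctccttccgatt
Enpep: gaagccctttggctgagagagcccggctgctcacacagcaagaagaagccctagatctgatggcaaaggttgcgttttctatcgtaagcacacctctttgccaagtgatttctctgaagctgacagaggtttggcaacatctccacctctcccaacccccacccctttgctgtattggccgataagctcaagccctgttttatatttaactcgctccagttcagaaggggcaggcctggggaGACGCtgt

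FOXN1 was present in both subsets at unequal levels. Foxn1 measured 233, 177 and 167 CPM in KO mTEClo and 351, 309 and 261 in KO cTEC (log2 difference -0.67 ± 0.17, edgeR adjusted p = 0.00281). Of 11 factors of the pharyngeal pouch, from which the thymus arises, 6 were higher in cTEC and none in mTEClo. The shares of all genes were 15.8% and 21.2%. The median of the 11 factors was -0.71, and with the mouse pool as a block 1 was higher in mTEClo. Pax1, a paired-box factor of the pouch endoderm, measured 190, 190 and 180 CPM in mTEClo and 552, 533 and 530 in cTEC. Pax9, its close relative, differed by -1.41 ± 0.12, and Hoxa3, required for the thymus to form, by -2.06 ± 0.24. Trp63, the p63 factor of stratified epithelia, measured 266, 244 and 251 CPM in mTEClo and 487, 543 and 548 in cTEC. Gcm2 and Tbx1 were among the 5 not called.

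**Figure D2:**
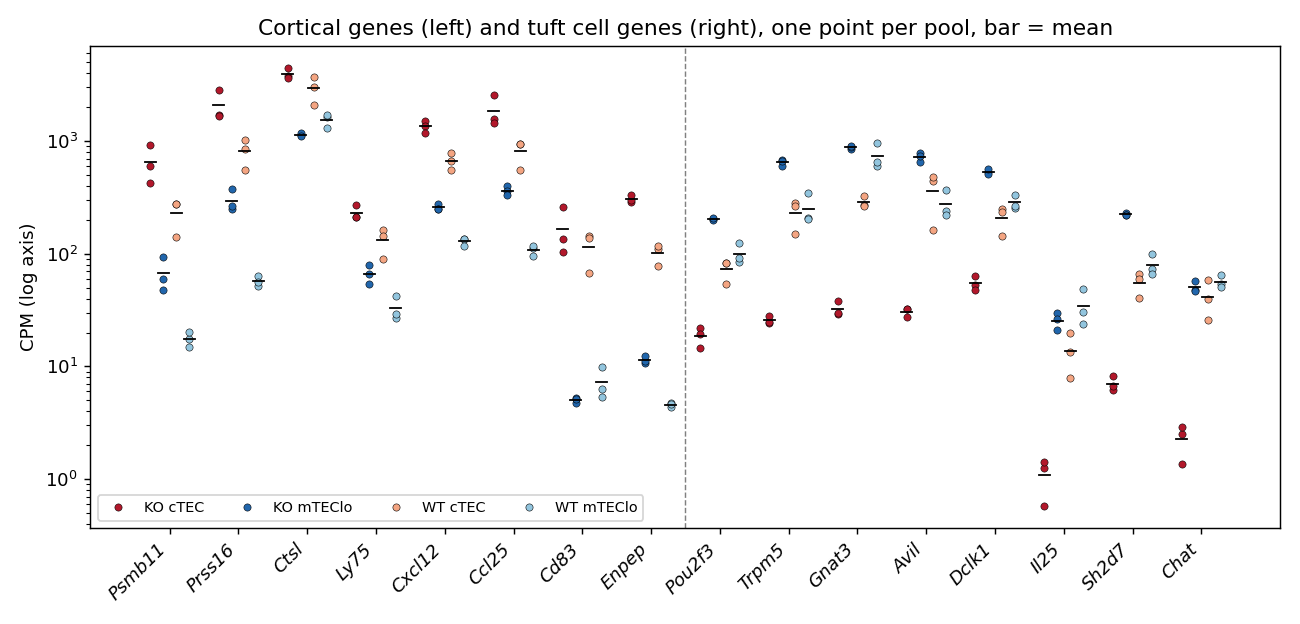
CPM on a log axis of 8 cortical genes (left of the dashed line) and 8 tuft cell genes (right) in KO cTEC, KO mTEClo, WT cTEC and WT mTEClo, 1 point per pool with the group mean as a bar. KO cTEC lies above KO mTEClo in every cortical gene shown and below it in every tuft gene shown, while the WT subsets lie closer together in the tuft genes, as in Trpm5 with WT means of 232 and 251 CPM.

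Thymocyte transcripts moved with the cortical genes. Of 20 thymocyte markers, 16 were higher in KO cTEC, 1 (Themis) was higher in KO mTEClo and 3 were not called. The shares of all genes were 15.8% higher in cTEC and 21.2% in mTEClo. The median of the markers was -3.31. Their summed level ranged from 361 to 579 CPM in KO cTEC and from 115 to 131 CPM in KO mTEClo. Cd8a measured 60.5, 34.4 and 38.1 CPM in cTEC and 3.79, 2.93 and 4.08 in mTEClo, and Dntt, the terminal transferase of immature thymocytes, 52.8, 38.4 and 30.1 against 3.04, 1.80 and 1.84. The pool 4 cTEC library was highest for both genes, as it was for Psmb11, Prss16 and Ccl25. Rag1, Rag2, Dntt, Cd8b1 and Cd3d stood among the 15 genes most raised in cTEC, beside Sla2 and Prkcb, a lymphocyte adaptor and a protein kinase C. Ptprc, the CD45 gene of all leukocytes, measured 24.7, 26.4 and 24.3 CPM in mTEClo and 36.6, 28.3 and 22.0 in cTEC and was not called. The part of these transcripts in the genes higher in KO cTEC was not tested.

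Other genes among the 15 most raised in cTEC included Car14, Rspo1, Glrb and Dlx4. Car14, a membrane carbonic anhydrase, measured 0.811, 0.282 and 0.51 CPM in mTEClo and 23.5, 24.8 and 14.6 in cTEC, the largest difference of these 15 at -5.29 ± 0.50. Rspo1, a secreted amplifier of Wnt signals, differed by -4.33 ± 0.43, Glrb, the glycine receptor beta subunit, by -3.99 ± 0.23, and Dlx4, a distal-less homeobox factor, by -3.79 ± 0.36. Glrb measured 49.2, 57.5 and 51.7 CPM in cTEC and 3.25, 3.04 and 3.62 in mTEClo, so its libraries stood closer together than those of the thymocyte genes. Outside these 15, Dcn, the matrix proteoglycan decorin, reached 2064, 1950 and 2145 CPM in cTEC against 363, 365 and 415 in mTEClo. Fbln1, another matrix gene outside the 15, differed by -2.25 ± 0.16. In the list of 10 fibroblast markers that holds both, Pdgfra and Col1a1 went the other way at 1.99 and 1.28 and 6 were not called. The 2 called each way stood beside 15.8% of all genes higher in cTEC and 21.2% in mTEClo. Col1a1 lost its call without the mTEClo library of pool 4.

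Of 10 MHC class II genes, 6 were higher in KO cTEC and none in KO mTEClo, with a median of -0.48. With the mouse pool as a block, or without the cTEC library of pool 4, 2 were higher in mTEClo, and without the mTEClo library of pool 6 there was 1. H2-DMa, which loads class II peptides, measured 109, 110 and 94.3 CPM in mTEClo and 328, 257 and 228 in cTEC (log2 difference -1.38 ± 0.13, edgeR adjusted p = 4.23e-08). The class II chains differed less, at -0.79 ± 0.12 for H2-Aa, -0.56 ± 0.12 for H2-Ab1 and -0.40 ± 0.12 for H2-Eb1, and the invariant chain Cd74 differed by -0.63 ± 0.13. Ciita, the class II transactivator, was not called at -0.27 ± 0.15. In WT, no class II gene was lower in mTEClo than in cTEC and 1 was higher. The mTEClo libraries of both genotypes were labelled with a low MHC class II level, and KO and WT came from different pools. The part of the sort in the KO and WT values was not tested. Of 13 MHC class I genes, 2 were higher in each subset, beside 21.2% of all genes higher in mTEClo and 15.8% in cTEC: H2-D1 and Nlrc5 in mTEClo at 0.50 and 0.48, Erap1 and Tapbpl in cTEC at -0.52 and -0.34. Nlrc5 lost its call without the cTEC library of pool 5, and Tapbpl lost it under RLE scaling and whenever any mTEClo library of pool 5 or 6, or any cTEC library, was left out.

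Proteasome subunits other than Psmb11 differed little. The immunoproteasome subunits Psmb9 and Psmb10 were higher in KO cTEC at -0.84 ± 0.13 and -0.61 ± 0.12, whereas Psmb8, the subunit that occupies the same beta5 position as Psmb11, was not called at -0.19 ± 0.11. Psmb5, the constitutive beta5 subunit, was not called at -0.08 ± 0.11. Per kilobase of gene model, the levels in KO cTEC were 153 ± 58 CPM per kilobase for Psmb11, 297 ± 35 for Psmb8 and 157 ± 13 for Psmb5 (SD, n = 3). The corresponding levels in KO mTEClo were 15.8 ± 5.6, 261 ± 16 and 148 ± 5.7. Psme1, a subunit of the PA28 activator, was higher in mTEClo at 0.49 ± 0.10. Among 10 lysosomal proteases and class II processing genes, Ctss, the cathepsin of medullary and dendritic cells, measured 46.0, 43.0 and 32.8 CPM in mTEClo and 18.2, 10.03 and 13.8 in cTEC, opposite in direction to Ctsl. Lamp2 was higher in cTEC at -0.88 ± 0.14. In the autophagy list of 14 genes, 2 were higher in each subset and 10 were not called. Over all genes, 21.2% were higher in mTEClo and 15.8% in cTEC. Atg5 was among the 2 higher in mTEClo, at 0.53 ± 0.10. With the mouse pool as a block 4 autophagy genes were higher in cTEC, and leaving out single libraries gave 1 to 4.

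Tuft cells are chemosensory cells of the gut and airways that use taste receptors and release leukotrienes, acetylcholine and interleukin 25. All 25 members of the list were higher in KO mTEClo, with a median log2 difference of 4.47, and no member's libraries overlapped between the groups, beside 52.9% of all genes. Pou2f3, the factor that specifies tuft cells, measured 203, 201 and 208 CPM in mTEClo and 21.8, 14.6 and 19.2 in cTEC (log2 difference 3.46 ± 0.21, edgeR adjusted p = 6.2e-11). Trpm5, the cation channel of taste signalling, measured 683, 602 and 668 CPM in mTEClo and 24.4, 24.7 and 27.9 in cTEC. The taste G protein subunits Gnat3 and Gnb3 had the smallest adjusted p of the list, 1.7e-13 for each, at 4.77 ± 0.18 and 4.61 ± 0.17. Gnat3 measured 847, 890 and 912 CPM in mTEClo and 37.9, 29.4 and 29.7 in cTEC. The mTEClo libraries of each of these genes lay within a narrow range far from the cTEC libraries.

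Effectors and markers of tuft cells followed the same order. Il25, the cytokine, measured 21.0, 29.5 and 26.2 CPM in mTEClo and 1.25, 1.42 and 0.578 in cTEC. Chat, which makes acetylcholine, differed by 4.47 ± 0.28. Alox5ap and Ptgs1, which feed leukotriene and prostaglandin synthesis, differed by 4.52 ± 0.20 and 4.22 ± 0.20. Dclk1, a kinase widely used as a tuft marker, differed by 3.28 ± 0.19, with 529, 510 and 567 CPM in mTEClo and 52.4, 48.2 and 63.9 in cTEC. Bitter taste receptors, which share sequence, so that reads could be split between copies, were among the 15 genes most raised in mTEClo. Tas2r126 measured 31.6, 35.6 and 35.9 CPM in mTEClo and 1.19, 0.971 and 0.789 in cTEC, and Tas2r118 and Tas2r123 differed by 5.22 ± 0.35 and 4.98 ± 0.42. Rgs21, a regulator of G protein signals in taste cells, differed by 5.00 ± 0.28 and Trpa1, an irritant-sensing channel, by 5.17 ± 0.65.

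Kcne1l, a potassium channel accessory subunit, measured 6.29, 4.73 and 6.47 CPM in mTEClo and 0, 0.0647 and 0.0526 in cTEC. Only 2 reads were counted over the 3 cTEC libraries, against 304 over the mTEClo libraries, so the ratio of the group levels was 145.0, with a 95% interval of 39.7 to 1200.0 that covers counting error only. Kcnj5, an inward rectifier potassium channel, measured 7.98, 9.74 and 11.6 CPM in mTEClo and 0.264, 0.388 and 0.21 in cTEC. Rab44 and Cacna2d2, a Rab family GTPase and a calcium channel subunit, differed by 5.32 ± 0.47 and 4.96 ± 0.58.

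Of 14 neuroendocrine genes tested, 13 were higher in mTEClo and none in cTEC, with a median of 2.89. Insm1, a zinc finger factor of neuroendocrine cells, measured 48.3, 45.1 and 45.5 CPM in mTEClo and 7.13, 5.31 and 6.47 in cTEC. Snap25, a vesicle fusion protein, differed by 3.61 ± 0.21 and Chgb, a granin, by 3.55 ± 0.30. Chga, the member not called, measured 1048, 1916 and 1727 CPM in mTEClo and 351, 1353 and 748 in cTEC. Its groups overlapped, and the pool 4 library was the lowest in each subset, although mTEClo was higher in each of the 3 pools. Pth, the parathyroid hormone gene, measured 692, 2306 and 1951 CPM in mTEClo and 482, 1516 and 830 in cTEC, again higher in mTEClo in each pool, and was not called (0.81 ± 0.69, edgeR adjusted p = 0.386). With the mouse pool as a block, Pth was not called over all 18 libraries (edgeR adjusted p = 0.176) and was called in the 6 libraries alone (0.81, edgeR adjusted p = 0.000427). Parathyroid tissue lies next to or within the thymus in mice, and its part in the counts of Pth and Chga was not tested. Casr, the calcium-sensing receptor, was the only 1 of 4 parathyroid genes called, at 1.66 ± 0.33, beside 21.2% of all genes. With the mouse pool as a block 3 of the 4 were higher in mTEClo, and in the 6 libraries alone with the block all 4.

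Keratinocyte genes were higher in KO mTEClo for 16 of 19 members, with a median of 2.39, and 1 member was higher in cTEC. Ivl, the cornified envelope protein involucrin, measured 37.5, 35.8 and 40.5 CPM in mTEClo and 4.22, 3.43 and 1.52 in cTEC. Krt79 differed by 3.46 ± 0.34, Flg, filaggrin, by 3.40 ± 0.42 and Sprr1a, another envelope protein, by 2.35 ± 0.17. Krt6a was the member higher in cTEC at -0.63 ± 0.19, and it lost its call without the mTEClo library of pool 5 or the cTEC library of pool 6. Among 11 keratins of the general epithelium, 6 were higher in mTEClo and 2 in cTEC, beside 21.2% and 15.8% of all genes. Krt14 and Krt17 were higher in mTEClo at 0.73 ± 0.11 and 1.03 ± 0.14. Krt15 and Krt18 were higher in cTEC at -1.22 ± 0.30 and -0.36 ± 0.12. The 2 fell to 1 without the mTEClo or the cTEC library of pool 4. Krt5 and Krt8 were not called at 0.06 ± 0.16 and 0.06 ± 0.13. Krt8 and Krt5 are often used to mark cortical and medullary epithelium by staining, and here Krt5 measured 957, 971 and 848 CPM in mTEClo and 951, 750 and 964 in cTEC.

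Muscle genes were higher in KO mTEClo for 13 of 18 members and in cTEC for none, beside 21.2% and 15.8% of all genes. The 13 fell to 7 without the mTEClo library of pool 4, and likewise without the cTEC library of pool 5 or of pool 6. The median was 2.13 as fitted and 2.02 with the 2 genes that had no reads in KO cTEC, Myf6 and Myod1, given a group floor of 3 reads. Myf6 had 8 reads over the mTEClo libraries and Myod1 had none. Myog, the myogenic factor myogenin, measured 15.8, 14.98 and 14.2 CPM in mTEClo and 0.264, 0.324 and 0.21 in cTEC (log2 difference 5.78 ± 0.32, edgeR adjusted p = 1.75e-11). Actc1, cardiac actin, differed by 5.58 ± 0.60 and Neb, the thin filament protein nebulin, by 2.38 ± 0.20. Enterocyte and hepatocyte genes were higher in mTEClo for 11 of 16 members, with a median of 1.82 as fitted and 1.68 with Alb at its floor. Vil1, the brush border protein villin, measured 20.1, 16.7 and 17.6 CPM in mTEClo and 2.24, 1.04 and 0.578 in cTEC, and Apoa4, an intestinal apolipoprotein, differed by 2.05 ± 0.34.

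Ciliated and secretory lists were mixed. Of 18 ciliated cell genes, 10 were higher in mTEClo and 2 in cTEC, with a median of 1.22. Dnah5, an axonemal dynein, measured 8.86, 8.05 and 8.31 CPM in mTEClo and 0.462, 0.0647 and 0.105 in cTEC, and Foxj1, the factor of motile cilia, differed by 1.75 ± 0.47. The 2 genes higher in cTEC were Ccno and Trp73, which act in multiciliated cell differentiation, at -1.97 ± 0.23 and -1.24 ± 0.22. Of 15 mucus and airway secretory genes, 7 were higher in mTEClo and 1 in cTEC. Fcgbp, a mucus protein, reached 3050, 2296 and 2024 CPM in mTEClo against 870, 754 and 712 in cTEC, and Scgb1a1, the club cell secretoglobin, differed by 3.02 ± 0.28, whereas Wfdc2 was higher in cTEC at -0.89 ± 0.23. Of 9 ionocyte genes, 4 were higher in mTEClo, among them Foxi1, the ionocyte factor, at 2.81 ± 0.32, and 1 was higher in cTEC, and the 4 fell to 2 without the mTEClo library of pool 6 or the cTEC library of pool 5. Of 11 microfold cell genes, 4 were higher in mTEClo and 2 in cTEC, beside 21.2% and 15.8% of all genes. Their median was 0.09, and the 2 fell to 1 when any KO library but the mTEClo library of pool 6 was left out. Spib, the factor of microfold cells, measured 251, 247 and 228 CPM in mTEClo and 48.4, 30.8 and 28.3 in cTEC, and Gp2, their uptake receptor, went the other way with 291, 511 and 488 against 489, 939 and 1151. The groups of Gp2 overlapped, although cTEC was higher in each of the 3 pools, and its call was lost without the cTEC library of pool 6.

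**Figure D3:**
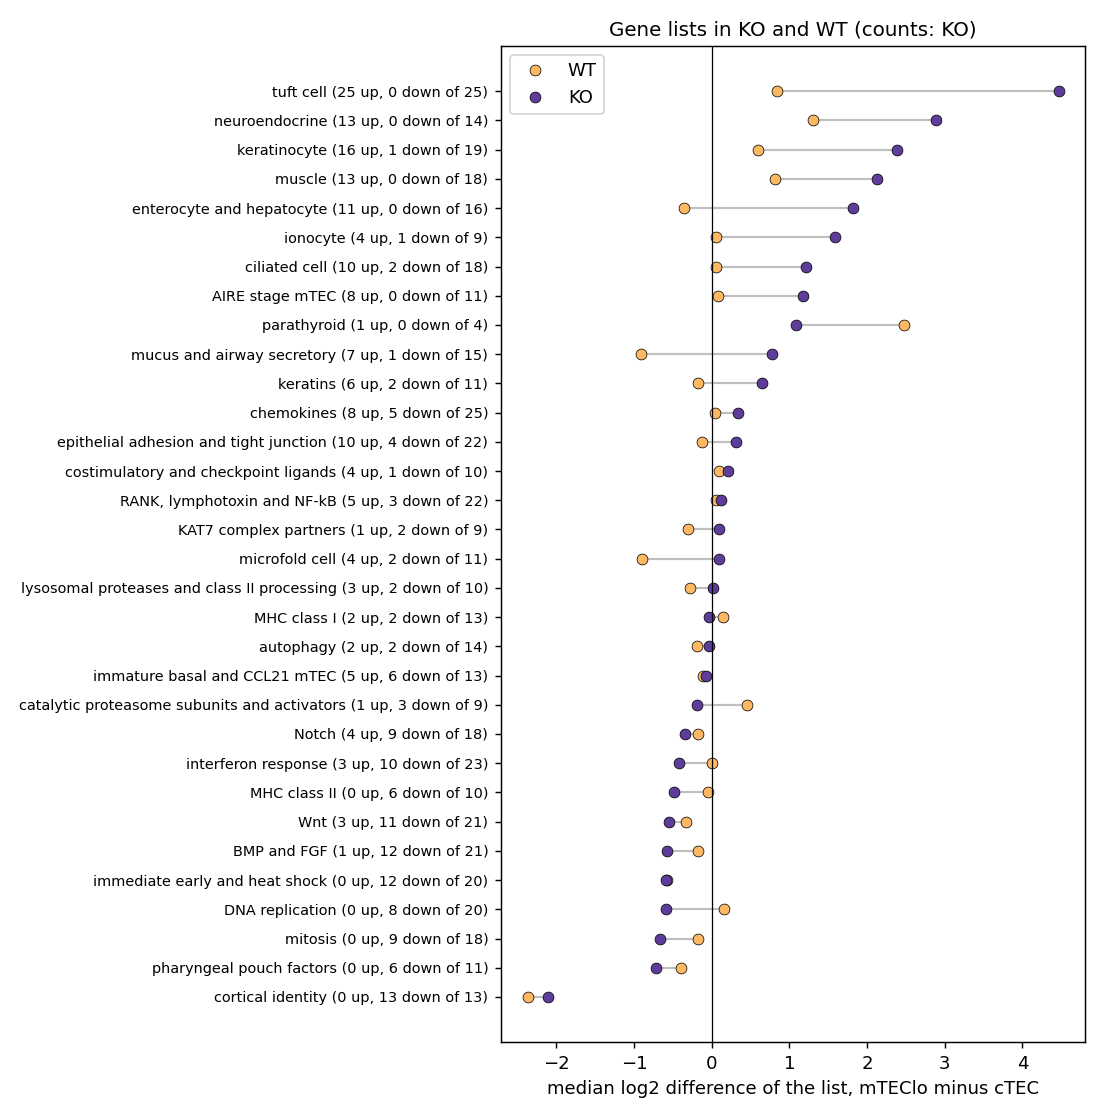
Median log2 difference of mTEClo minus cTEC for each gene list in KO (purple) and WT (orange), with the number of tested members called higher and lower in KO mTEClo beside each name. The tuft cell list lies at 4.47 in KO and 0.84 in WT, while the cortical identity list lies at -2.11 in KO and -2.37 in WT.

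Genes of the AIRE stage, which marks mature mTEChi, were low in both subsets but higher in KO mTEClo for 8 of 11 members, with a median of 1.18. Aire, the regulator of tissue antigens, measured 55.1, 38.0 and 24.8 CPM in mTEClo and 22.4, 17.9 and 11.7 in cTEC (log2 difference 1.18 ± 0.34, edgeR adjusted p = 0.00856). The lowest mTEClo library stood only just above the highest cTEC library. Fezf2, the second known regulator of tissue antigens, measured 137, 139 and 125 CPM in mTEClo and 74.6, 50.9 and 46.6 in cTEC. Tnfrsf11a, the RANK receptor that drives medullary maturation, differed by 1.14 ± 0.11 and Prdm1, the repressor BLIMP1, by 3.19 ± 0.38. Of 10 costimulatory and checkpoint genes, 4 were higher in mTEClo and 1 in cTEC, beside 21.2% and 15.8% of all genes. Their median was 0.21. Cd80 and Cd86 differed by 1.91 ± 0.18 and 1.57 ± 0.34, and Pdcd1lg2, the PD-1 ligand PD-L2, by 1.50 ± 0.21. All of these lay at 11.3 CPM or less in these 6 libraries. Icam1 was the member higher in cTEC, at -0.59 ± 0.13, and Cd40 and Cd274 were not called. Of 22 genes of RANK, lymphotoxin and NF-kB signalling, 5 were higher in mTEClo, 3 in cTEC and 14 not called, shares near the 21.2% and 15.8% of all genes. Tnfrsf11b, the soluble RANK decoy osteoprotegerin, was higher in mTEClo at 1.49 ± 0.23, and Nfkb1 and the lymphotoxin receptor Ltbr were higher in cTEC at -0.66 ± 0.11 and -0.40 ± 0.11.

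Genes of immature medullary cells went both ways, 5 of 13 higher in mTEClo and 6 in cTEC, and the 5 fell to 3 without the mTEClo library of pool 5 or the cTEC library of pool 4. Ccl21a, the chemokine that calls positively selected thymocytes into the medulla, measured 303, 691 and 549 CPM in mTEClo and 356, 278 and 111 in cTEC (log2 difference 1.05 ± 0.30, edgeR adjusted p = 0.00972). The groups of Ccl21a overlapped, since the pool 4 mTEClo value lay below the pool 4 cTEC value, and its reads may be shared with near-identical copies. Pdpn, podoplanin, measured 60.3, 64.8 and 63.8 CPM in mTEClo and 162, 188 and 207 in cTEC. Itga6 and Itgb4, the basal laminin receptor, were higher in cTEC at -0.37 ± 0.10 and -0.60 ± 0.13. Among 22 adhesion and junction genes, 10 were higher in mTEClo and 4 in cTEC, beside 21.2% and 15.8% of all genes. Epcam was higher in mTEClo at 0.46 ± 0.09, Cdh2, N-cadherin, measured 48.6, 47.2 and 56.3 CPM in mTEClo and 2.77, 3.56 and 3.47 in cTEC, and Cldn8, a claudin, was higher in cTEC at -1.93 ± 0.25.

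Of 25 chemokine genes, 8 were higher in KO mTEClo and 5 in KO cTEC, beside 21.2% and 15.8% of all genes. Their median was 0.34, and the 8 fell to 4 without the mTEClo library of pool 5. In BMP and FGF signalling, 12 of 21 genes tested were higher in KO cTEC and 1 in mTEClo, with a median of -0.57. Id3, a BMP-induced inhibitor of differentiation, measured 222, 269 and 273 CPM in mTEClo and 683, 822 and 737 in cTEC, and Id1 differed by -1.42 ± 0.14. Bmp4, the ligand that supports cortical epithelium, differed by -1.72 ± 0.34, Fst, an activin antagonist, by -1.63 ± 0.11 and Fgfr2, the receptor of keratinocyte growth factor, by -1.05 ± 0.10. Bmp2 was the member higher in mTEClo, at 2.47 ± 0.28. In Wnt signalling, 11 of 21 genes were higher in cTEC and 3 in mTEClo, with a median of -0.55, and with the mouse pool as a block 5 were higher in mTEClo. Wnt4, a ligand that sustains Foxn1 expression, measured 304, 303 and 281 CPM in mTEClo and 515, 567 and 496 in cTEC. Tcf7 had the widest difference of the Wnt list at -2.80 ± 0.29 and is, like Lef1 at -1.45 ± 0.33, also a T cell factor that thymocytes express. In Notch signalling, 9 of 18 genes were higher in cTEC, among them the ligands Jag2 at -1.01 ± 0.15 and Dll1 at -0.90 ± 0.16 and the target Hey1 at -0.96 ± 0.15. The 4 higher in mTEClo included Dll3, an inhibitory ligand, at 3.81 ± 0.38 and the feedback gene Nrarp at 1.35 ± 0.17.

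The next lists stand beside 15.8% of all genes higher in KO cTEC and 21.2% in KO mTEClo. Of 23 interferon response genes, 10 were higher in KO cTEC and 3 in KO mTEClo, with a median of -0.42. With the mouse pool as a block 5 were higher in mTEClo, and without the mTEClo library of pool 4 or the cTEC library of pool 5 there was 1. Gbp2, an interferon-induced GTPase, measured 69.9, 56.9 and 64.5 CPM in mTEClo and 149, 114 and 124 in cTEC, and Oasl1 was higher in mTEClo at 0.82 ± 0.12. Of 20 DNA replication genes, 8 were higher in cTEC and none in mTEClo, and of 18 mitosis genes 9 and none. Without the cTEC library of pool 4, 5 genes of each list were higher in cTEC. Mcm4, of the replicative helicase, differed by -0.87 ± 0.16 and Ccnb1, cyclin B1, by -0.93 ± 0.21, with Ccnb1 at 17.1 CPM or less in these 6 libraries. Thymocytes divide, and their transcripts were higher in the same libraries. The part of these transcripts in the cell cycle genes was not tested. Of 20 immediate early and heat shock genes, 12 were higher in cTEC and none in mTEClo, with a median of -0.59. Ier3 measured 82.1, 131 and 118 CPM in mTEClo and 392, 733 and 509 in cTEC, Egr1 differed by -0.84 ± 0.19 and Fos was not called at -0.46 ± 0.21. Immediate early genes also respond to cell dissociation, which was not recorded per sample in the sources used here.

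Summed levels of markers of other cell types differed between the subsets in different directions or overlapped. The summed level of 15 macrophage and dendritic cell markers ranged from 112 to 141 CPM in KO mTEClo and from 42.6 to 52.1 in KO cTEC. Lyz2 alone, the lysozyme gene, measured 92.4, 86.9 and 110 CPM in mTEClo and 33.3, 23.6 and 26.5 in cTEC. Of the 15 markers, 3 were higher in mTEClo, 3 in cTEC and 9 not called, shares near the 21.2% and 15.8% of all genes. Itgam and Mrc1 were also higher in mTEClo, and C1qa, C1qc and Mertk were higher in cTEC. The macrophage receptor Csf1r lay at 1.10 CPM or less in every one of these libraries. Endothelial markers summed to 128 to 161 CPM in mTEClo and 24.3 to 31.5 in cTEC. The 4 of 9 that were called, Tek, Vwf, Flt1 and Esam, were all higher in mTEClo, beside 21.2% of all genes. The median of the 9 was -0.08 and was not stable. Leaving out single KO libraries gave -0.25 to 1.41, and the 6 libraries alone with the mouse pool as a block gave 1.06. Tek, the angiopoietin receptor, measured 69.6, 50.9 and 51.8 CPM in mTEClo and 3.50, 4.01 and 3.79 in cTEC, but Cdh5, Kdr and Emcn, which define endothelium, did not pass the filter on low counts and Pecam1 was not called. The mural and erythroid sums overlapped between the subsets. Of 7 B cell markers only Cd79b was called, at 3.75 ± 0.28, beside 37.0% of all genes called in either direction. Ms4a1 and Pax5 had no reads in KO cTEC and at most 0.406 CPM in KO mTEClo.

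**Figure D4:**
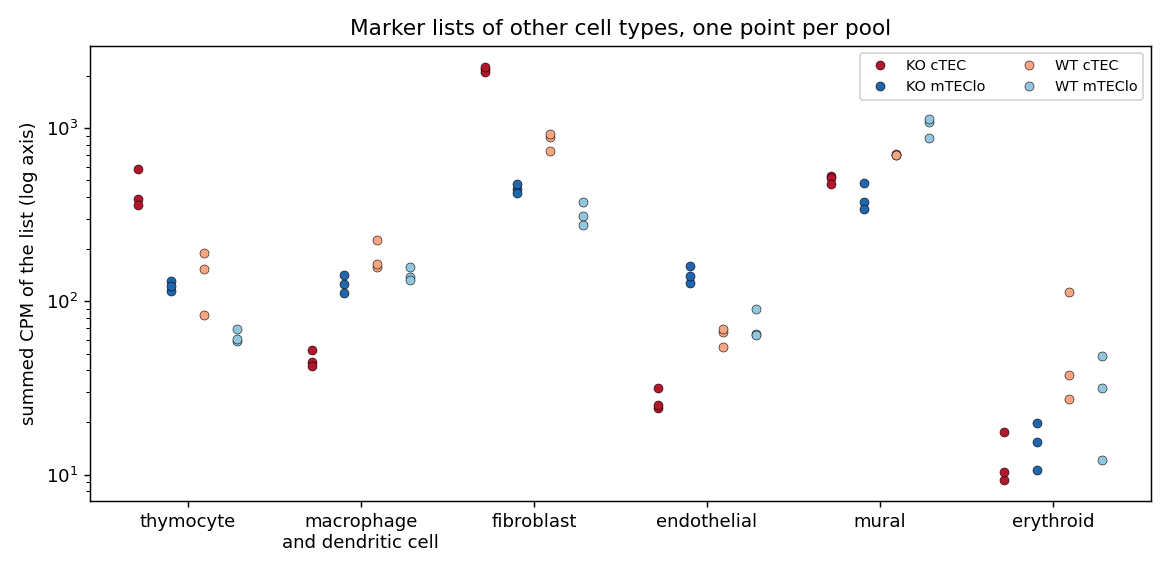
Summed CPM of marker lists of other cell types on a log axis in KO cTEC, KO mTEClo, WT cTEC and WT mTEClo, 1 point per pool. Thymocyte and fibroblast sums are highest in KO cTEC, at 361 to 579 and 2121 to 2273 CPM, the latter mostly Dcn at 1950 to 2145 CPM, with 6 of the 10 fibroblast markers not called and Pdgfra and Col1a1 higher in KO mTEClo. Macrophage and endothelial sums are lowest in KO cTEC, although the median log2 differences of these lists in KO were -0.43 and -0.08. The endothelial median ranged from -0.25 to 1.41 when single KO libraries were left out.

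In WT, 5313 genes (27.4%) were called, 2515 higher in mTEClo (13.0%) and 2798 higher in cTEC (14.4%), and with a fold of at least 2 the counts were 933 (4.82%) and 1067 (5.51%). The difference between mTEClo and cTEC itself differed between genotypes for 5032 genes (26.0%) by the interaction term, 3184 (16.4%) more positive in KO and 1848 (9.54%) more negative. Of the 7164 genes called in KO, 1165 were higher in mTEClo and 1135 higher in cTEC in both genotypes, 253 were higher in mTEClo in KO and in cTEC in WT, and 158 the reverse. Over the genes called the same way in both, the median absolute log2 difference was 1.38 in KO and 0.97 in WT. Across all genes tested, Pearson's r of the KO and WT differences was 0.344, a description over genes, which are not independent replicates. KO and WT libraries came from different pools, and any batch that went with the genotype cannot be told apart from it.

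For 10 of the 13 cortical identity genes the interaction was not called, and the list's median was -2.37 in WT. Psmb11 differed by -3.72 in WT and -3.28 in KO (interaction 0.44, edgeR adjusted p = 0.434), and Enpep by -4.47 and -4.75. The 3 called were Prss16, at 1.02, and Ctsl and Il7, at -0.86 and -0.87, and Il7 was not called in WT at 0.20. All 25 tuft cell genes had a more positive difference in KO, with a median interaction of 3.38. In WT, 15 of the 25 were higher in mTEClo and none in cTEC, with a median of 0.84, among them Alox5ap at 1.66 and Gnat3 at 1.37. Trpm5 averaged 251 CPM in WT mTEClo and 232 CPM in WT cTEC, a difference of 0.12 that was not called, against 4.66 in KO (interaction 4.55, edgeR adjusted p = 5.82e-09). For Trpm5, Pou2f3 and Avil, both WT means lay above those of KO cTEC and below those of KO mTEClo. Avil, an actin-binding tuft marker, averaged 361 CPM in WT cTEC and 275 in WT mTEClo and measured 777, 655 and 734 CPM in KO mTEClo and 32.3, 27.6 and 32.3 in KO cTEC. The summed level of the tuft cell list was 1968 to 3088 CPM in WT cTEC and 3916 to 5682 CPM in WT mTEClo, against 393 to 449 CPM in KO cTEC and 7761 to 8127 CPM in KO mTEClo.

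Several genes changed direction between the genotypes. Id1 and Id3 were higher in mTEClo in WT, at 0.84 and 0.75, and higher in cTEC in KO, with interactions of -2.26 and -2.31. Cidea, a lipid droplet protein, was higher in mTEClo in WT at 1.95 and in cTEC in KO at -2.22. Ccr2, a chemokine receptor, averaged 2.42 CPM in WT mTEClo and 14.3 in WT cTEC, and measured 9.67, 9.01 and 11.6 CPM in KO mTEClo and 1.39, 1.17 and 1.16 in KO cTEC (interaction 5.58, edgeR adjusted p = 2.75e-08). Slc4a10, a bicarbonate transporter, went from -2.43 in WT to 3.47 in KO, and Tnfrsf11b from -1.41 to 1.49. Of the MHC class II list, no gene was lower in WT mTEClo than in WT cTEC and 1 was higher, and 6 of 10 had a more negative difference in KO, among them H2-DMa at -1.07 and H2-Aa at -0.56. In the proteasome list, Psmb8 was higher in WT mTEClo at 0.62 and not called in KO, with an interaction of -0.81. Kcnj5 and Rgs7, which did not pass the test in WT at -0.11 and -0.66, had interactions of 5.17 and 5.15.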

How the data were processed

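RNA from sorted thymic epithelial cells was amplified with SMART-Seq v4, made into unstranded Nextera XT libraries and sequenced as paired ends, per the labels' protocols. The authors deposited raw counts per gene, made with featureCounts on mm10 per the submitters' processing notes; the aligner is not given in the sources used here. Groups came from the labels' genotype, location and MHC class II level. Of 27179 genes, 19364 passed edgeR's filterByExpr (minimum count 10 in the 18 libraries). Counts were fitted with edgeR 4.0.16 (R 4.3.3): TMM scaling, 1 mean per group over all 18 libraries, the quasi-likelihood test and Benjamini-Hochberg adjustment. Levels per kilobase used the gene length in the files. The code was tested on simulated data. Without strand, overlapping and antisense genes cannot be told apart.

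Library totals ranged from 3554089 to 20054360 counts over the series, and detected genes were compared after thinning to the smallest. Libraries of the same mouse pool are paired by source: their deviations from the group means correlated at 0.093, 0.043 and 0.109 in KO, against -0.085 to -0.013 between different KO pools. Named genes were Kat7 and the 15 most raised and 15 most lowered called genes. The raised and lowered genes had groups not overlapping and at least 5 CPM in the higher group. Up to 5 members per list by smallest adjusted p were added, with up to 2 of the opposite direction, and genes that define a list. The 8 most positive and 8 most negative called interactions were also named. For these, all KO pool differences lay beyond the WT ones, with at least 5 CPM in KO or WT mTEClo or cTEC. The text gives a selection. The members and lists were chosen with earlier results of these data known. Alternatives were RLE scaling, no filter, DESeq2 1.42.0, the pool block, the 6 libraries alone, a fold of at least 2 and leaving out each library. Some genes are not reported here.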

Additional observations from a re-analysis of the deposited data

Results flagged for a closer look

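The log2 difference between mTEClo and cTEC was itself tested for a difference between KO and WT, and the genes of the report for which that interaction passed an adjusted p of 0.05 (edgeR's quasi-likelihood test, n = 3 pools per group) are given here as KO minus WT of the difference. KO and WT came from different pools, so each value is a difference between these pools. 5032 of 19364 genes (26.0%) passed this test.

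Tuft cell and taste genes had more positive differences in KO, with values of 3.0 for Pou2f3, 4.55 for Trpm5, 4.94 for Avil, 3.4 for Gnat3, 3.38 for Gnb3, 2.82 for Dclk1, 4.0 for Chat, 3.23 for Il25, 2.86 for Alox5ap and 3.21 for Ptgs1. For the bitter taste receptors the values were 3.74 for Tas2r118, 4.18 for Tas2r123 and 3.45 for Tas2r126. Rgs21 gave 3.85 and Trpa1, the irritant-sensing channel, 4.2. Channel, transport and signalling genes gave 5.81 for Kcne1l, 5.17 for Kcnj5, 5.15 for Rgs7, 5.02 for Rab44, 4.38 for Cacna2d2, 5.9 for Slc4a10 and 5.58 for Ccr2.

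Genes of other peripheral programmes gave 2.22 for Insm1, 1.45 for Snap25 and 1.7 for Chgb among neuroendocrine genes, with Pth the other way at -3.44. Keratinocyte and keratin genes gave 2.6 for Ivl, 2.28 for Flg, 3.18 for Krt79, 1.77 for Sprr1a and 0.56 for Krt17, and ciliated cell genes 3.68 for Dnah5, 2.33 for Foxj1 and -0.89 for Ccno. Muscle genes gave 4.74 for Myog and 1.33 for Neb, intestinal genes 4.37 for Vil1 and 2.82 for Apoa4, and secretory, ionocyte and microfold genes 1.54 for Fcgbp, 3.34 for Scgb1a1, 2.88 for Foxi1 and 3.1 for Spib.

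Medullary maturation and costimulation genes gave 1.6 for Aire, 0.79 for Tnfrsf11a, 2.91 for Tnfrsf11b, 2.99 for Prdm1, 1.31 for Cd80, 1.49 for Cd86 and 1.39 for Pdcd1lg2. Of the 10 costimulatory and checkpoint genes, 4 had a more positive and 3 a more negative difference in KO. The more negative were Cd40 at -0.66, Icosl at -0.55 and Icam1 at -0.59. Cortical and pouch genes gave 1.02 for Prss16, -0.86 for Ctsl, -0.87 for Il7, -1.26 for Pax9, -1.85 for Hoxa3, -0.58 for Trp63 and 2.64 for Tbx1. Antigen presentation genes gave -0.56 for H2-Aa, -0.59 for H2-Ab1, -0.61 for H2-Eb1, -1.07 for H2-DMa, -0.66 for Cd74, 0.79 for Ctss, -0.54 for Psmb5, -0.81 for Psmb8, -0.8 for Psmb9 and -0.66 for Psmb10.

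Signalling genes gave 2.5 for Bmp2, -2.26 for Id1, -2.31 for Id3, -1.24 for Fst, -0.57 for Fgfr2, -0.83 for Wnt4, -2.24 for Rspo1, -1.53 for Lef1, 0.65 for Dll1, 1.56 for Dll3 and 1.25 for Nrarp. Proliferation, interferon and immediate early genes gave -0.92 for Mcm4, -1.03 for Ccnb1, -0.69 for Gbp2 and -1.65 for Ier3. Adhesion and basal genes gave 3.51 for Cdh2, -1.7 for Cldn8, -0.52 for Itga6 and -1.16 for Pdpn. Outside these groups, Glrb gave -1.49 and Cidea -4.17, and the KAT7 partner gene Jade3 gave 1.12.

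Markers of other cell types gave -2.61 for Cd3d, 1.31 for Themis, -2.79 for Sla2 and -3.01 for Prkcb for thymocyte and lymphocyte genes, 2.56 for Cd79b and 2.15 for Lyz2, 2.89 for Itgam and 1.32 for Mrc1 for B cell and myeloid genes, 4.14 for Tek, 2.11 for Flt1, 2.52 for Vwf and 1.21 for Esam for endothelial genes and -1.07 for Dcn, -2.51 for Fbln1 and 3.33 for Col1a1 for fibroblast genes. Of the endothelial list, 5 of 9 genes tested did not pass this test, and of the macrophage and dendritic cell list 12 of 15. The part of other cell types in the values above was not tested.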

How the results depend on the processing

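The counts of genes higher in KO mTEClo and in KO cTEC (4097 and 3067) were 4164 and 2990 with RLE scaling, 3984 and 3224 with no filter and 4294 and 3135 with DESeq2. With at least a 2-fold difference they were 2930 and 1148. Leaving out single libraries gave 3516 to 3822 and 2444 to 2613, and for genes detected at equal depth a difference of 776.1 to 869.1 beside 810.5. For the interaction, leaving out single libraries gave 2712 to 3502 genes more positive and 1216 to 2224 more negative in KO, the lowest without the WT mTEClo library of pool 2. With the mouse pool as a block the KO counts were 4170 and 3422 over all 18 libraries and 4319 and 3650 in the 6 libraries alone (4274 and 3574 without the block). The pairing moved neither of these counts by over 1.5 times, and no named gene reversed under any of these settings. The list results were less stable: of 117 list counts and medians, 8 moved with the block over all 18 libraries, 13 with the block in the 6 libraries alone, and 13 to 25 when 1 KO library was left out, the most without the cTEC library of pool 4. Of 78 list counts, 23 moved without some library, and 6 of 39 list medians changed sign. With 3 pools a group, genes with few reads are the least precise.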

Other observations

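Some of the largest fitted differences rested on 1 library each and were looked up after their values were seen. Igkv6-32, an immunoglobulin kappa variable segment, measured 17.0 CPM in KO cTEC of pool 4 and 0 in the other 5 KO libraries compared, with a fitted log2 difference of -9.15 (edgeR adjusted p = 0.0037). Igkv8-19, another such segment, measured 19.5 CPM in KO mTEClo of pool 6, 0.0563 in that of pool 5 and 0 in the other 4, with a fitted difference of 9.36 (edgeR adjusted p = 0.00252). Both passed the test without a difference shared by the pools of a group.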
